A study of Mus musculus with 3 samples.

Results

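Crabp1 and 8 other genes of retinoid metabolism (Crabp2, Aldh1a1, Aldh1a2, Aldh1a3, Cyp26b1, Stra6, Dhrs3 and Rarb) were followed through the cells of regenerating mouse muscle. They are 9 of the 32285 features in the count tables and were found there by gene symbol. The set was chosen by measured values of these libraries, since Crabp1 had one of the highest ratios of old rMETRNL to old PBS in fibro/adipogenic progenitors (FAPs), the mesenchymal cells that expand between damaged fibres. That ratio is therefore a description of what led to the choice. Single-cell RNA sequencing had been run on cell suspensions of tibialis anterior muscle 4 days after injury by barium chloride (BaCl2) injection. The 3 groups were young mice given PBS (young PBS), old mice given PBS (old PBS) and old mice given recombinant meteorin-like protein into the muscle (old rMETRNL). All 3 groups carried the injury, no library of uninjured muscle was used here, and the methods give C57/BL6J as the strain, with no transgene or deletion. Each group was 1 library that pooled several mice, so there were no replicates and no test. Every interval below covers counting error only, and a ratio compares 2 libraries rather than ages or treatments. Old PBS over young PBS is called the old/young ratio below, and old rMETRNL over old PBS the rMETRNL/PBS ratio.

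Retinoic acid is made inside cells from vitamin A. Retinol enters through the STRA6 receptor, is oxidised to retinaldehyde by retinol dehydrogenases and, in the step that commits it, to retinoic acid by the retinaldehyde dehydrogenases ALDH1A1, ALDH1A2 and ALDH1A3, while DHRS3 returns retinaldehyde to retinol. CRABP1 and CRABP2 bind retinoic acid in the cytoplasm, CRABP2 being known for handing it to nuclear receptors such as RARB, and CYP26B1 breaks it down. In connective tissue these genes mark fibroblast populations that make, receive or clear the signal.

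The response to retinoic acid has a sequence signature, the direct repeat that its receptors bind, and Rarb is a textbook target that carries one. The 250 bases before each RefSeq transcript start (GRCm38.p6) were searched on both strands for a pair of 6-base half-sites in the same orientation, where a half-site was AGGTCA, its variant AGTTCA, the variant GGGTCA or the variant GGTTCA, the pair, separated by 1, 2 or 5 bases. Promoter entries were at hand for 7 of the 9 genes (13 promoters, none for Crabp2 or Aldh1a3), and 1 of these 7 genes had a match, which overlapped no other. The stretch of the Rarb promoter is shown because the element sits close to the start: it lies at chr14:16575488-16575554 on the minus strand, the capitals mark the 2 half-sites with the 5 bases between them, and the 17-base element ends 36 bases before the transcript start.
Rarb: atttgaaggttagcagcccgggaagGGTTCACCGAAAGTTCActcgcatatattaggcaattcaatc
Over all 32851 promoters, 0.426% held a match at any of the 3 spacings and 0.0883% at spacing 5. A match describes letters in this window and does not show binding in these cells.

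The files held 12168, 12568 and 14012 cell barcodes in young PBS, old PBS and old rMETRNL, with 218059089, 179295668 and 228966697 unique molecular identifiers (UMIs, 1 per captured transcript). After filtering 31823 cells were kept, with median UMI counts of 15100, 13698 and 14507. Cells called FAP-like from markers numbered 1638, 1364 and 1698, and their median UMI counts were 25928, 21717 and 24633.5. All 12 FAP markers, Pdgfra and Dcn among them, were higher in these cells than in the other cells of each library, which the naming from the same list had largely fixed. Summed levels of the 13 macrophage markers in FAP-like cells were 207, 241 and 252 CPM (UMIs of a gene scaled to a common total per class and library) against 25839 to 28167 in macrophage/monocyte-like cells, the 11 endothelial markers summed to 17.3, 31.1 and 21.9, the 10 tenocyte markers to 569, 637 and 409, and no marker of the 3 lists was at 0. Libraries shared 80, 58 and 76 barcodes in pairs, and 21, 10 and 13 FAP-like cells carried such a barcode. Leaving these cells out gave Crabp1 ratios of 5.87 for old rMETRNL over old PBS and 0.320 for old PBS over young PBS.

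**Figure D1:**
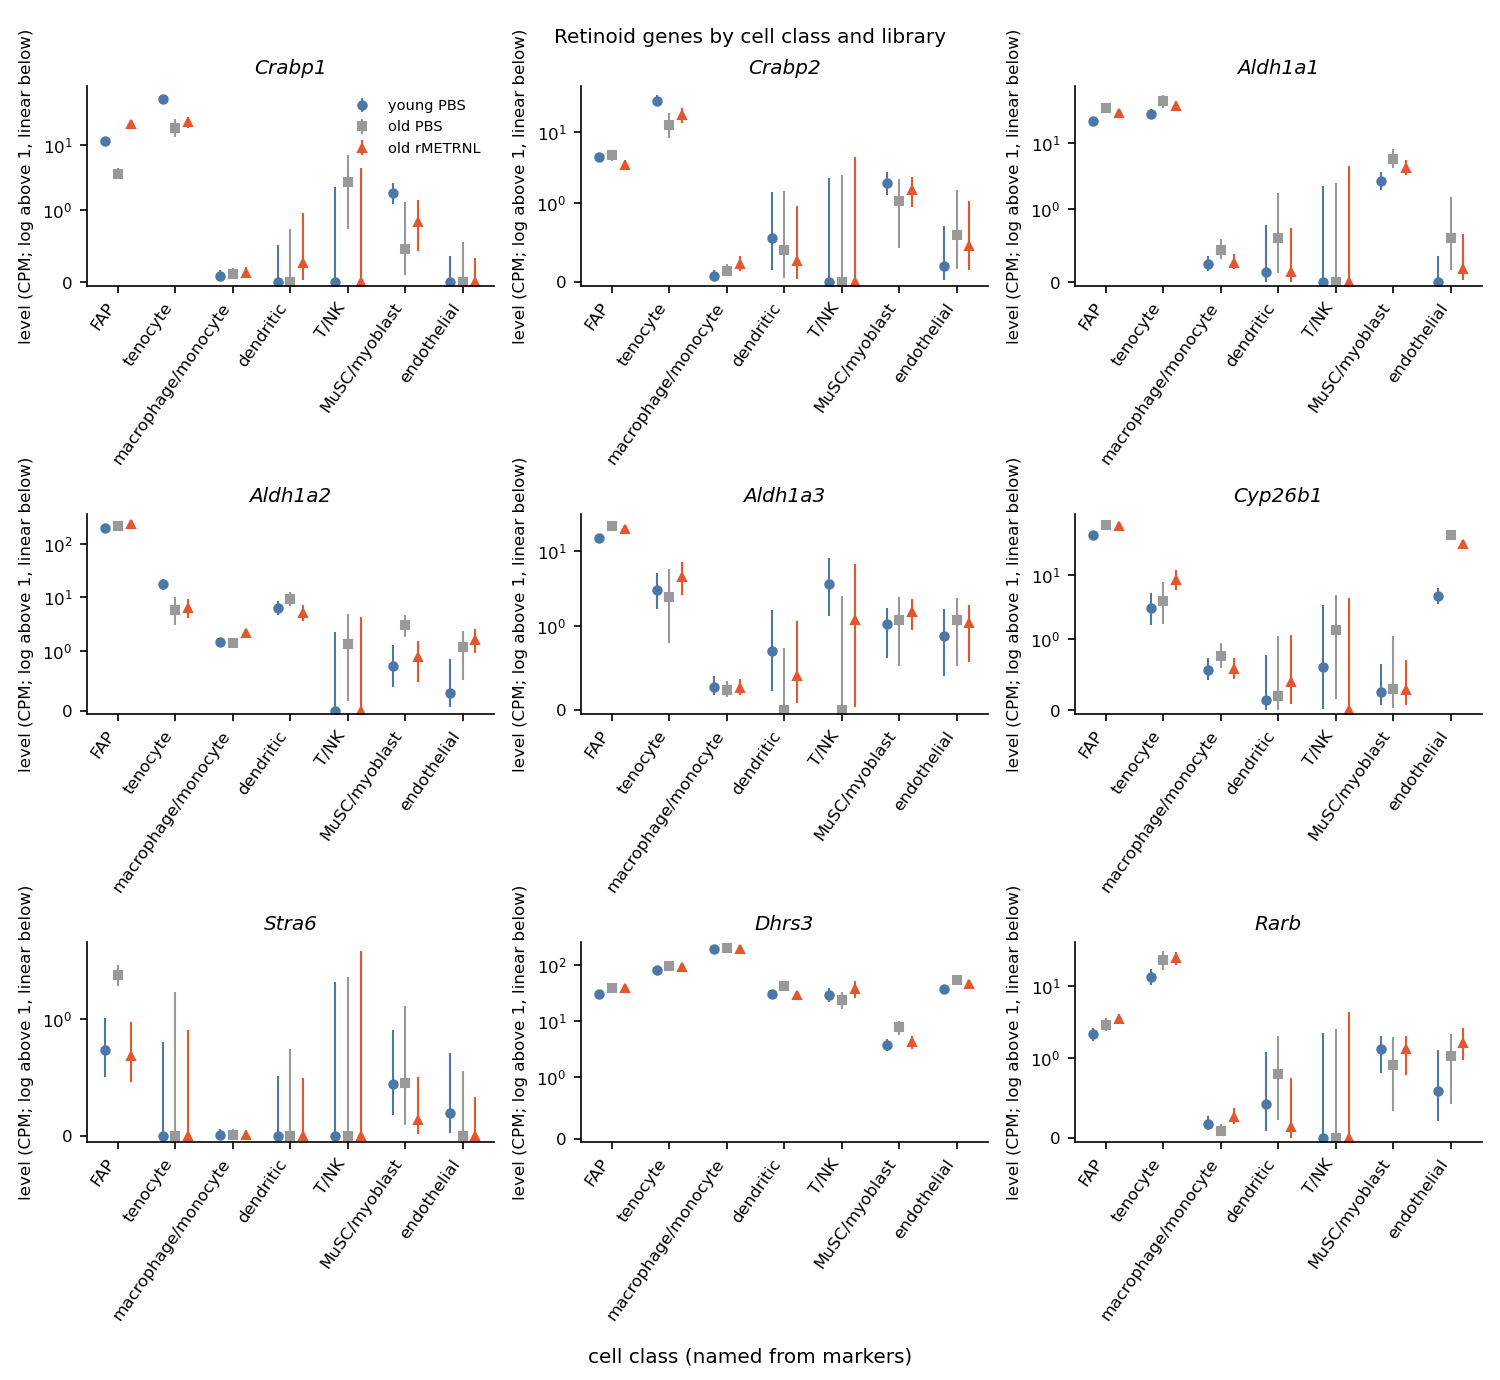
Level of each gene (y axis, CPM of the class total, logarithmic above 1 and linear below) in the 7 cell classes of at least 100 cells per library (x axis), with 1 symbol per library and exact 95% Poisson intervals. Aldh1a2 sits between 193 and 233 CPM in FAP-like cells of every library, Dhrs3 is highest in macrophage/monocyte-like cells, and Cyp26b1 in endothelial-like cells spreads from 4.70 to 42.1 CPM between libraries.

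Crabp1, the cytoplasmic retinoic acid binding protein, was largely a transcript of FAP-like and tenocyte-like cells. It is ENSMUSG00000032291, chr9:54764748-54773110 on the plus strand of GRCm38. Values are given in the order young PBS, old PBS, old rMETRNL. In FAP-like cells 516, 109 and 942 UMIs were counted, which is 11.5 CPM (10.5 to 12.5), 3.61 CPM (2.97 to 4.36) and 21.3 CPM (19.98 to 22.7). Old PBS was thus the lowest library and old rMETRNL the highest, with no overlap of the counting intervals. The ratio was 0.315 (0.254 to 0.388) for old PBS over young PBS, 5.90 (4.83 to 7.26) for old rMETRNL over old PBS, and 1.86 (1.67 to 2.07) for old rMETRNL over young PBS. These 3 contrasts share libraries, so a low value in old PBS enters both of the first 2.

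By its rMETRNL/PBS ratio Crabp1 was number 2 of 11845 genes with at least 200 UMIs in FAP-like cells. Only Col2a1, a cartilage collagen, stood above it, at 0.778, 0.564 and 5.75 CPM, and the lactate exporter Slc16a3 was among the genes close below it. Slc16a3 was at 26.98, 6.23 and 27.6 CPM. By the old/young ratio Crabp1 was number 14 from the lowest.

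The size of these ratios depended on which barcodes were called doublets, that is, droplets taken to hold 2 cells. The doublet scores gave no cells by their automatic threshold, and the highest scores were called at a set rate, 9.69%, 10.04% and 11.1% of scored barcodes. In the FAP clusters 137, 129 and 124 called barcodes held 149, 156 and 35 Crabp1 UMIs, or 31.9, 38.1 and 9.57 CPM. In old PBS the called barcodes therefore held more Crabp1 UMIs than the 1364 cells that were kept. With them put back the levels were 13.4, 7.74 and 20.4 CPM, the rMETRNL/PBS ratio was 2.64 (2.30 to 3.04), the old/young ratio 0.578 (0.499 to 0.667) and the ratio of old rMETRNL over young PBS 1.53 (1.38 to 1.69). Crabp1 was then number 11 of 12077 genes by the rMETRNL/PBS ratio and number 224 from the lowest by the old/young ratio. The direction of all 3 contrasts stayed the same.

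The called barcodes differed from the kept FAP-like cells in other genes as well. A UMI of Mki67, a proliferation marker, was found in 46.0%, 35.7% and 33.1% of them against 17.8%, 12.3% and 20.3% of the kept FAP-like cells. Pecam1, an endothelial gene, was found in 20.4%, 20.9% and 20.2% against 6.72%, 13.7% and 10.1%, and the leukocyte gene Ptprc in 14.6%, 11.6% and 8.87% against 8.91%, 7.55% and 8.36%. Their median UMI counts were 30977, 28392 and 27064. Whether called barcodes with much Crabp1 were single cells was not tested. Of the called barcodes with at least 10 Crabp1 UMIs, 4 of 4 in young PBS and 6 of 7 in old PBS also had Mki67, and old rMETRNL had none.

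**Figure D2:**
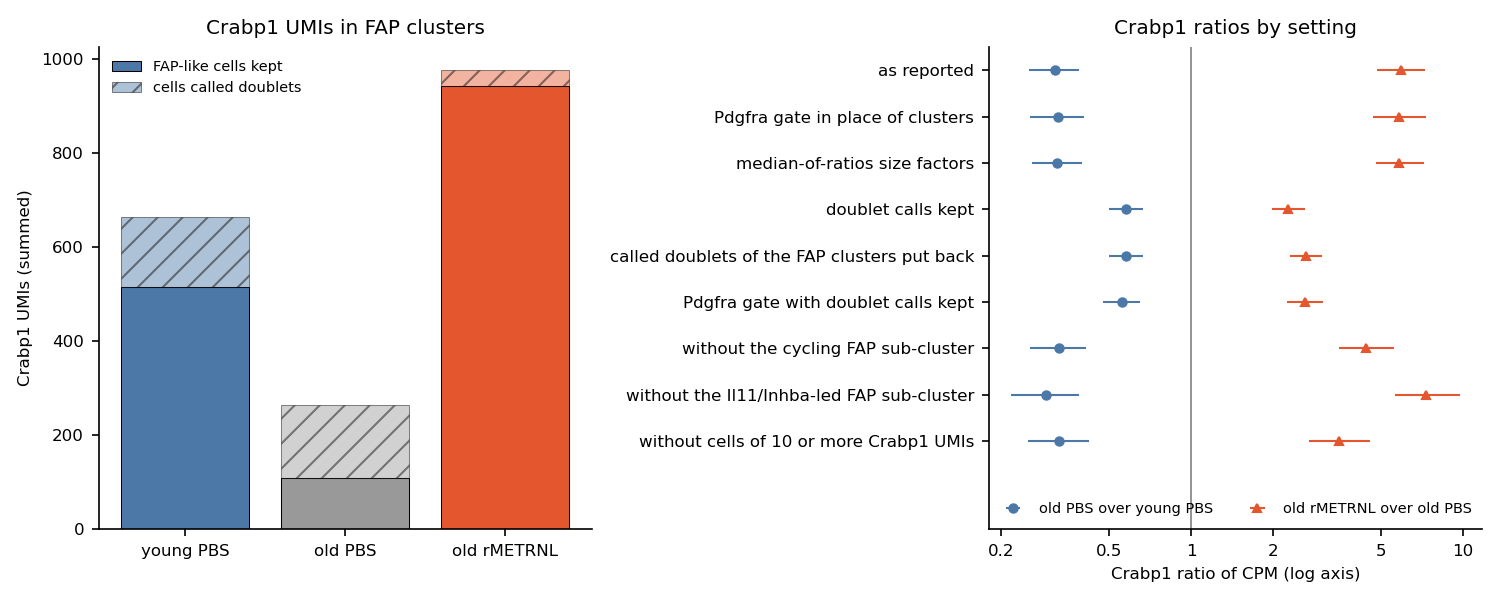
Left, Crabp1 UMIs summed over FAP-like cells (plain bars) and over called doublets of the FAP clusters (hatched, 149, 156 and 35 UMIs) in each library. Right, the Crabp1 old/young and rMETRNL/PBS ratios (log axis, 95% counting intervals) under 9 settings, where the former lies between 0.293 and 0.578 and the latter between 2.28 and 7.33.

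Crabp1 UMIs were counted in a minority of FAP-like cells. At least 1 UMI was found in 10.9%, 3.59% and 10.9% of FAP-like cells. With every cell thinned to 2000 UMIs the shares were 1.34%, 0.520% and 1.91%. In macrophage/monocyte-like cells, which should lack the gene, the shares were 0.143%, 0.181% and 0.203% unthinned and 0.016%, 0.034% and 0.045% thinned, at median UMI counts of 14068, 14685 and 14322.5. Shares in FAP-like cells were thus above this background in each library, and young PBS and old rMETRNL had like shares unthinned, while at equal depth the share was 1.34% (0.844% to 2.03%) against 1.91% (1.31% to 2.69%). Cells with at least 10 Crabp1 UMIs numbered 13, 3 and 25, and they held 34.5%, 31.2% and 60.2% of the UMIs. The highest cell had 19, 13 and 78 UMIs. Without the cells of at least 10 UMIs the rMETRNL/PBS ratio was 3.50 (2.72 to 4.54), the old/young ratio 0.327 and the ratio of old rMETRNL over young PBS 1.14 (0.984 to 1.33), an interval that includes 1.

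Within FAP-like cells Crabp1 was found chiefly in 2 sub-clusters, which had been built with all genes of the retinoid list left out of the clustering. The first was the cycling sub-cluster (119, 52 and 145 cells, led by histone and mitotic genes), at 26.6, 10.6 and 64.6 CPM. The other was led by Ptprn, Slc16a3, Il11, Inhba and Acta2 (281, 149 and 315 cells), with Crabp1 at 24.2, 10.8 and 35.8 CPM. Together they held 70.2%, 63.3% and 81.1% of the Crabp1 UMIs of FAP-like cells. The rMETRNL/PBS ratio was 6.08 (3.93 to 9.92) in the cycling and 3.32 (2.45 to 4.59) in the Il11/Inhba-led sub-cluster, and the old/young ratios were 0.399 (0.239 to 0.636) and 0.446 (0.320 to 0.611). Both orders of libraries repeated that of the whole class. All ratios by sub-cluster come from kept cells alone and were not recomputed with the called doublets put back. In the cycling sub-cluster of old PBS Crabp1 had 21 UMIs. Acta2 is a marker of the pericyte and smooth muscle list. No FAP marker was among the leading genes of the Il11/Inhba-led sub-cluster, nor among those of any other FAP sub-cluster. Leading genes were ranked against the other cells of the FAP clusters. Without the Il11/Inhba-led sub-cluster the rMETRNL/PBS ratio was 7.33 and the old/young ratio 0.293. Without the cycling one they were 4.40 and 0.327, and without both 3.75 and 0.334.

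Outside these 2 sub-clusters the Crabp1 level was below 7 CPM in every sub-cluster and library except the Pi16/Dpp4 cells of old rMETRNL. In Pi16/Dpp4 FAPs, a population described as a stem-like reserve near vessels and fascia, 23, 12 and 103 UMIs gave 6.84, 3.98 and 17.6 CPM and an rMETRNL/PBS ratio of 4.42 (2.42 to 8.83). In the sub-cluster led by Cxcl10 and Lcn2 the levels were 5.13, 1.72 and 3.07 CPM, and the rMETRNL/PBS ratio of 1.79 (0.810 to 4.16) could not be told from 1. In heat shock gene cells, 31, 0 and 35 UMIs were counted, and in the Inmt/Myoc/C7 cells 6, 0 and 3. In the Inka1/Swt1-led cells 39, 10 and 14 UMIs gave an old/young ratio of 1.02 (0.455 to 2.09) and an rMETRNL/PBS ratio of 0.673 (0.278 to 1.69), and in the Dio2/Adamts4-led cells 11, 7 and 4 UMIs gave 0.180 (0.0591 to 0.508) and 1.10 (0.236 to 4.32). The order of the class, with old PBS lowest and old rMETRNL highest, was thus seen in 4 of the 8 sub-clusters (cycling, Il11/Inhba-led, Pi16/Dpp4 and heat shock) and not in the other 4. The share of each sub-cluster also differed between libraries, the Dio2/Adamts4-led one making up 5.43%, 23.02% and 9.66% of FAP-like cells. With the composition of the 8 sub-clusters held fixed, the rMETRNL/PBS ratio was 3.81 against 5.87 unweighted over the same cells, and the old/young ratio was 0.417 against 0.316. Both fixed-composition ratios were closer to 1 than the unweighted ones and lay on the same sides of 1. They too come from kept cells alone, without the called doublets.

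Cycling cells were also counted among kept cells, called doublets left out, from 10 cell cycle genes after thinning, without use of the clusters. They made up 7.70%, 5.13% and 10.2% of FAP-like cells, and their Crabp1 level was 26.3, 12.04 and 56.7 CPM. In the remaining cells it was 9.52, 2.89 and 14.4 CPM, so that Crabp1 was higher in cycling cells of each library. The rMETRNL/PBS ratio was 4.71 (3.23 to 7.13) in cycling and 4.98 (3.93 to 6.38) in other cells, and the old/young ratio was 0.457 (0.295 to 0.686) and 0.303 (0.235 to 0.386).

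**Figure D3:**
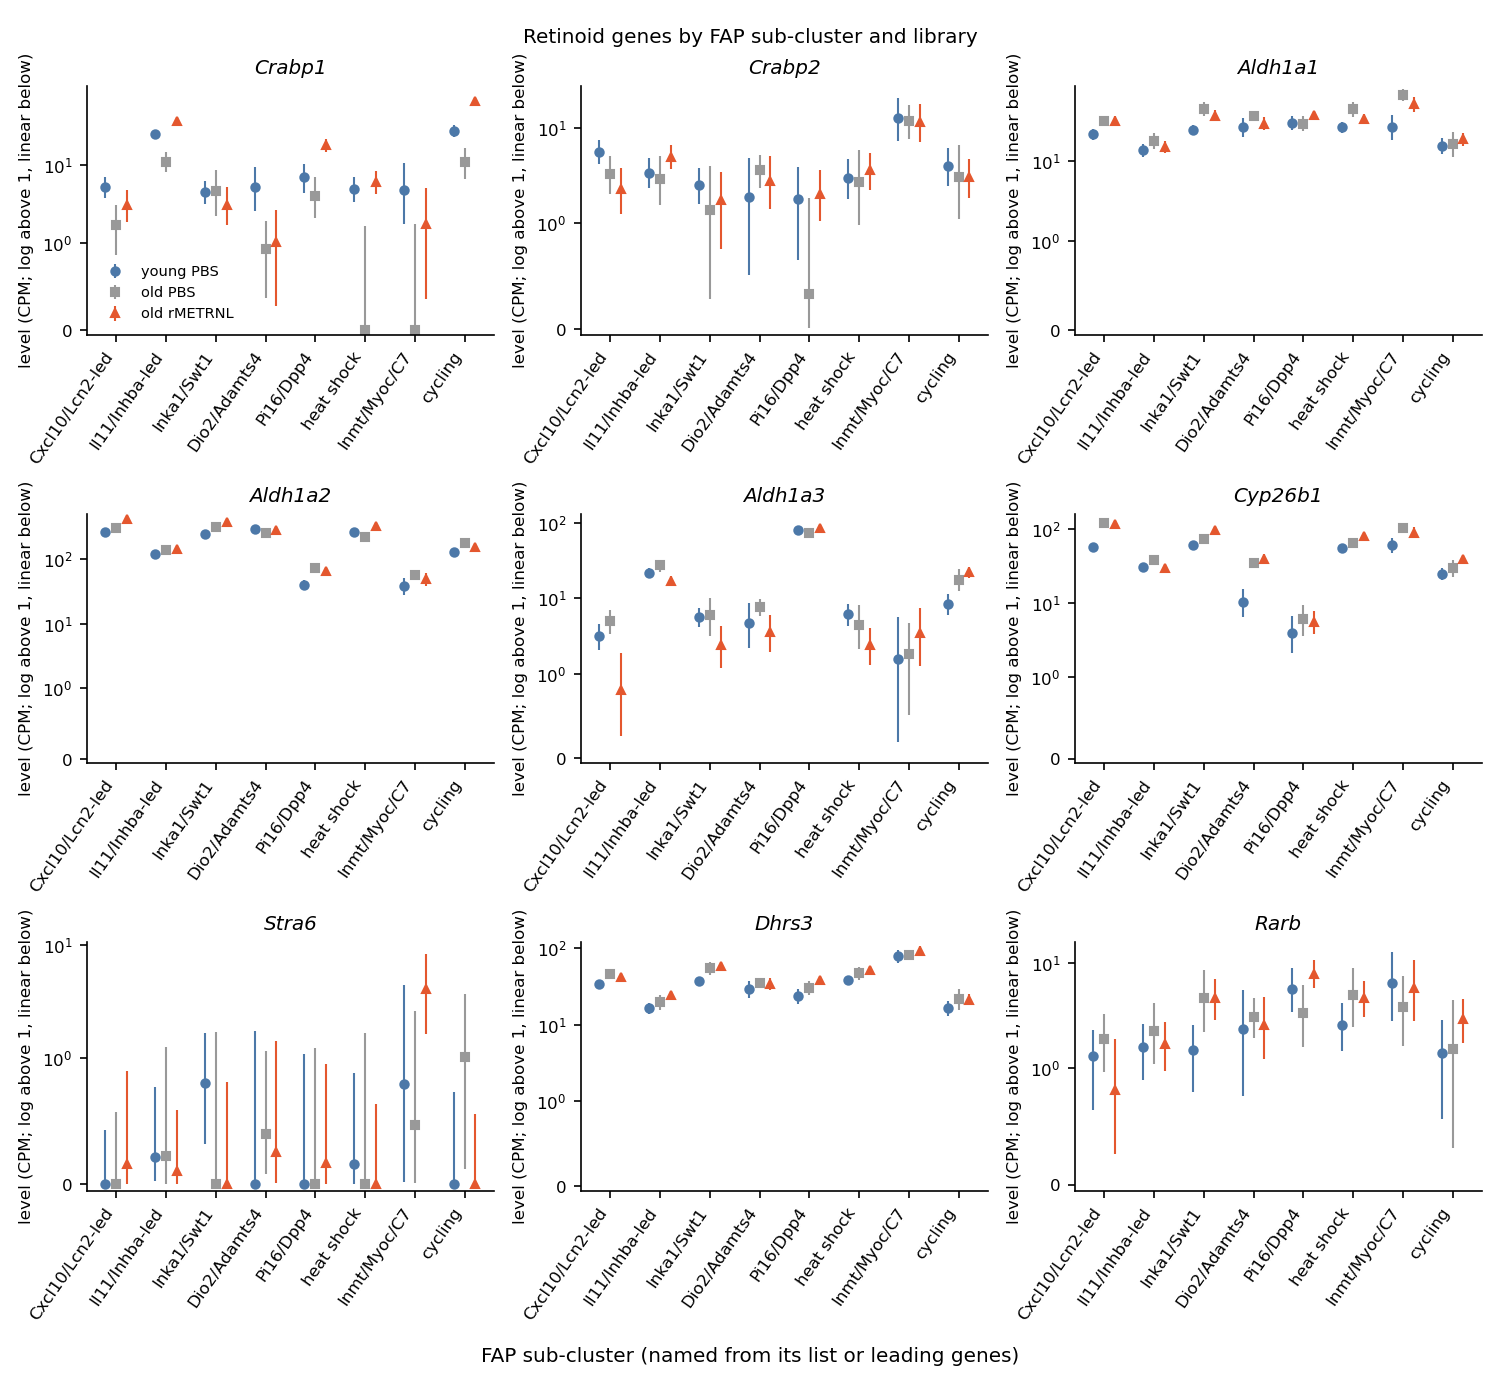
Level of each gene (y axis, CPM, logarithmic above 1 and linear below) in the 8 FAP sub-clusters with at least 20 cells in each library (x axis), with 1 symbol per library and exact 95% Poisson intervals. Crabp1 peaks in the cycling and Il11/Inhba-led sub-clusters, Aldh1a3 in Pi16/Dpp4 cells at 73.3 to 85.5 CPM, and Cyp26b1 is lowest in Pi16/Dpp4 cells.

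The genes most like Crabp1 over the 24 points of 8 FAP sub-clusters in 3 libraries included several of glycolysis. By Pearson's r of log2(CPM + 1) the first 5 were Pgam1 (0.918), Gapdh (0.912), Rpl36al (0.908), Pgk1 (0.903) and Eno1 (0.898), 4 of them glycolytic enzymes. The next 5 were Cdc34, Esd, Uba1, Txn1 and Higd1a, down to 0.878. The other members ranged from -0.78 for Aldh1a1 and -0.68 for Dhrs3 to 0.53 for Aldh1a3. These points share libraries and sub-clusters that differ in depth and cell cycle, so r is a description. Over the 21 points of 7 classes in 3 libraries the nearest genes were Mmp16 (0.952), Cpxm1, Sgcd, Cemip and Olfml1.

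In tenocyte-like cells, which carry the tendon markers Tnmd and Fmod, Crabp1 was highest in young PBS, unlike in FAP-like cells. The 201, 117 and 224 cells held 235, 38 and 91 UMIs, or 51.2, 18.5 and 22.3 CPM. The old/young ratio was 0.362 (0.250 to 0.512), the rMETRNL/PBS ratio 1.20 (0.816 to 1.81) and the ratio of old rMETRNL over young PBS 0.436 (0.339 to 0.558). A single young PBS cell held 96 of the UMIs, 40.9% of that library's tenocyte total, and without it the old/young ratio was 0.606 (0.411 to 0.873) and old rMETRNL over young PBS 0.729 (0.554 to 0.957). Thinned to 2000 UMIs the tenocyte-like cells held 16, 2 and 12 UMIs, an old/young ratio of 0.218 (0.0243 to 0.926) and an rMETRNL/PBS ratio of 3.13 (0.696 to 28.8). With doublet calls kept, 8 FAP-like cells of old rMETRNL with 140 Crabp1 UMIs were placed among tenocyte-like cells, and the rMETRNL/PBS ratio there became 1.996 (1.53 to 2.64) and old rMETRNL over young PBS 0.948 (0.797 to 1.13). The border between the 2 classes therefore holds some of the cells that decide both ratios. Ranges of tenocyte-like and FAP-like levels overlapped, those of FAP-like and MuSC/myoblast-like cells (1.82, 0.456 and 0.830 CPM) did not, and 0 UMIs were counted in 654, 928 and 967 endothelial-like cells, which allows shares of cells with a UMI of up to 0.459%, 0.323% and 0.310% at median UMI counts of 11395.5, 3937.5 and 7065 and sets no limit on cells that express the gene.

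**Figure D4:**
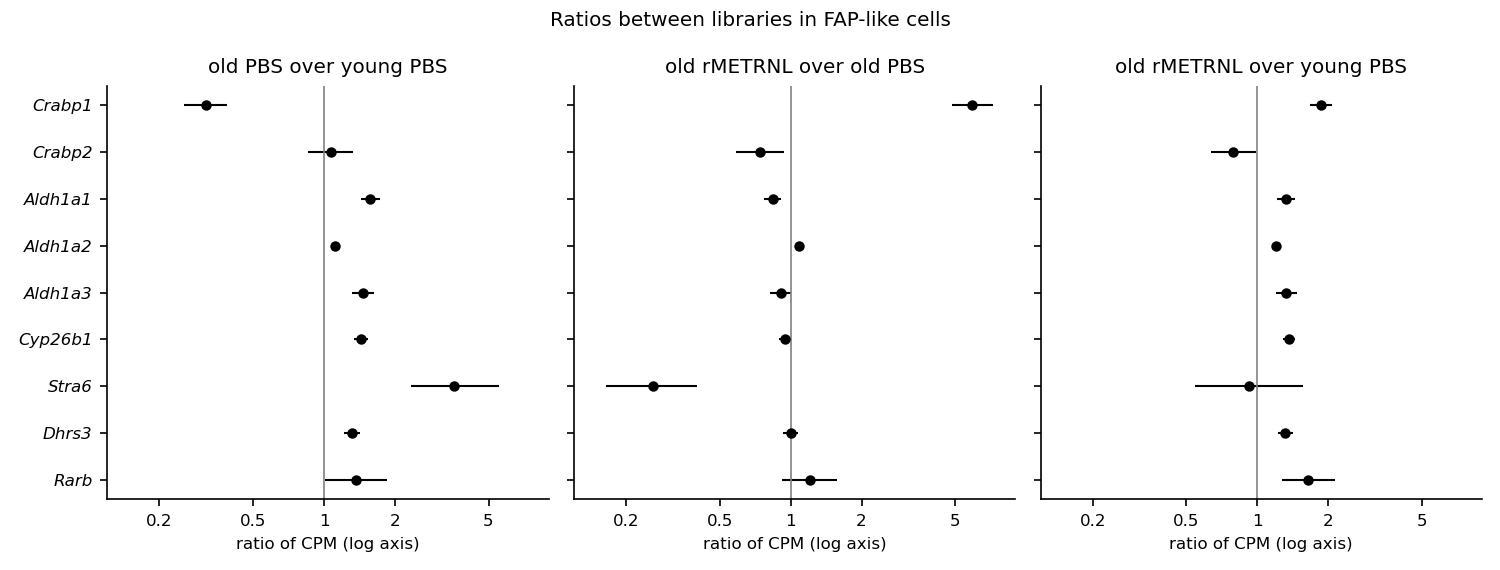
Ratios of CPM between libraries in FAP-like cells (x axis, log scale) for the 9 genes (y axis) in 3 contrasts, with exact 95% intervals for counting error and a line at 1. Crabp1 and Stra6 lie farthest from 1 in the contrasts with old PBS, Crabp1 at 0.315, 5.90 and 1.86, and Aldh1a2 lies between 1.08 and 1.20 in all 3.

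Crabp2, the other cytoplasmic binding protein (chr3:87948666-87953376, plus strand), did not follow Crabp1. Its 197, 141 and 153 UMIs in FAP-like cells gave 4.38, 4.67 and 3.46 CPM, an old/young ratio of 1.07 (0.854 to 1.33) and an rMETRNL/PBS ratio of 0.741 (0.585 to 0.938). The rMETRNL/PBS ratio rested on few cells. A small sub-cluster of 14, 26 and 10 cells led by Sfrp5 and Itgb4 held 30, 39 and 0 of these UMIs, and without it the rMETRNL/PBS ratio was 1.02. Among the other sub-clusters Crabp2 was highest in the Inmt/Myoc/C7 cells, at 12.8, 11.7 and 11.6 CPM, where Crabp1 had 6, 0 and 3 UMIs. In tenocyte-like cells it was at 27.4, 12.7 and 17.2 CPM, with an old/young ratio of 0.462 (0.291 to 0.710), which is the side of 1 on which Crabp1 also lay.

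Stra6, the retinol uptake receptor (chr9:58063788-58153996, plus strand), came mostly from the small Sfrp5/Itgb4 sub-cluster. FAP-like cells held 33, 79 and 30 UMIs, or 0.733, 2.62 and 0.679 CPM, with an old/young ratio of 3.57 (2.35 to 5.54) and an rMETRNL/PBS ratio of 0.259 (0.164 to 0.399). Of these UMIs 22, 72 and 19 came from the 14, 26 and 10 cells of that sub-cluster, at 112, 327 and 234 CPM. Without it the old/young ratio was 0.952 and the rMETRNL/PBS ratio 1.07, and under a Pdgfra gate in place of clusters they were 0.631 and 2.07. The Stra6 ratios of the class thus moved with the number and content of a few cells. These cells were led by Sfrp5, Itgb4, Tenm2, Ntng1 and Cldn1 and are given no cell type name. Stra6 overlaps Gm16131 on the same strand, and what the overlap does to its count was not tested.

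Dhrs3, the reductase that returns retinaldehyde to retinol (chr4:144892827-144928209, plus strand), was a macrophage transcript here. Macrophage/monocyte-like cells held 87.8%, 90.02% and 87.5% of its UMIs, at 192, 204 and 195 CPM, with at least 1 UMI in 79.5%, 79.8% and 79.3% of cells. MuSC/myoblast-like cells, at median UMI counts of 29648.5, 27096.5 and 29479, had it in 8.09%, 13.3% and 9.36% of cells. Among the classes of at least 100 cells per library, tenocyte-like cells came next at 81.9, 95.1 and 93.2 CPM. Endothelial-like, FAP-like and dendritic-like cells had overlapping ranges. In FAP-like cells the level was 29.9, 39.3 and 39.3 CPM. Old PBS and old rMETRNL were both above young PBS, with an old/young ratio of 1.31 (1.21 to 1.42) and an rMETRNL/PBS ratio of 1.001 (0.930 to 1.08). The genes nearest to Dhrs3 over the 21 class points were Grina (0.964), Glmp, Sgsh, Neu1 and Slc48a1, several of them lysosomal.

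Aldh1a2, a retinaldehyde dehydrogenase (chr9:71215789-71296243, plus strand), was the most FAP-restricted of the 3 synthesis genes. FAP-like cells held 92.0%, 92.8% and 92.3% of its UMIs in the 3 libraries. Their 8694, 6501 and 10283 UMIs gave 193, 216 and 233 CPM, an old/young ratio of 1.12 (1.08 to 1.15) and an rMETRNL/PBS ratio of 1.08 (1.05 to 1.11). These ratios are precise in counting and close to 1, and with 1 library a group a difference of this size cannot be set against the spread between mice. Positive cells made up 61.9%, 58.3% and 58.2% unthinned and 23.4%, 23.3% and 25.4% thinned. In MuSC/myoblast-like cells they were 0.638%, 1.83% and 2.74%, and in macrophage/monocyte-like cells 1.99%, 2.02% and 2.55%.

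The level of Aldh1a2 differed more between FAP sub-clusters than between libraries. It was 266, 308 and 428 CPM in the Cxcl10/Lcn2-led cells, against 40.5, 74.0 and 65.6 CPM in Pi16/Dpp4 cells and 38.3, 56.7 and 49.1 CPM in Inmt/Myoc/C7 cells. Between libraries the old/young ratio ran over the 8 sub-clusters from 0.851 (0.769 to 0.941) in heat shock gene cells to 1.83 (1.47 to 2.28) in Pi16/Dpp4 cells, and its interval lay above 1 in 6 and below 1 in 2. The rMETRNL/PBS ratio ran from 0.857 (0.759 to 0.970) in cycling to 1.47 (1.33 to 1.63) in heat shock gene cells, with an interval above 1 in 4 and below 1 in 1. The direction of either ratio thus differed between sub-clusters. Dendritic-like cells, some of which are known to make retinoic acid, had 6.40, 9.41 and 5.20 CPM. That was 3.31%, 4.37% and 2.24% of the FAP-like level. For 8 FAP genes used to trace free RNA the medians were 0.536%, 0.461% and 0.545%, and the highest 13.7%, 5.63% and 10.7%. The part of free RNA was not tested. In dendritic-like cells the rMETRNL/PBS ratio was 0.553 (0.352 to 0.864). However, 1 old PBS cell held 18 of that library's 47 UMIs, and without it the ratio was 0.893 (0.538 to 1.497). The nearest gene over classes was Ptgs2os (0.971), a noncoding RNA gene next to Ptgs2.

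Aldh1a1, the retinaldehyde dehydrogenase also known from stem cell assays (chr19:20492715-20643465, plus strand), was lowest in young PBS in both connective tissue classes. FAP-like cells held 959, 1012 and 1246 UMIs, or 21.3, 33.6 and 28.2 CPM, with an old/young ratio of 1.57 (1.44 to 1.72) and an rMETRNL/PBS ratio of 0.841 (0.773 to 0.914). Tenocyte-like cells were at 27.4, 42.4 and 36.1 CPM, with an old/young ratio of 1.55 (1.16 to 2.05). MuSC/myoblast-like cells were lower, at 2.64, 5.78 and 4.22 CPM, with the same order of libraries and an old/young ratio of 2.19 (1.37 to 3.47). The highest levels were not in connective tissue. Myocyte-like cells (34, 444 and 132 cells, at median UMI counts of 3012.5, 2109.5 and 2280.5) had Aldh1a1 at 369%, 286% and 323% of the FAP-like level. Within FAPs the old/young ratio was highest in the Inmt/Myoc/C7 cells, at 26.3, 66.0 and 50.8 CPM and a ratio of 2.51 (1.71 to 3.78), and in Pi16/Dpp4 cells it was 0.971 (0.721 to 1.31). Reads of its close copy Aldh1a7 numbered 2 UMIs over all FAP-like cells.

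Aldh1a3, the third synthesis gene (chr7:66390890-66427517, minus strand), was highest in Pi16/Dpp4 FAPs among the sub-clusters with at least 20 cells in each library. Its level there was 80.6, 73.3 and 85.5 CPM, against 0.809 to 27.2 CPM in the other sub-clusters of that size. The smaller Sfrp5/Itgb4 sub-cluster of 14, 26 and 10 cells held 14, 152 and 0 UMIs. In old PBS the level in those cells was above that in Pi16/Dpp4 cells. Pi16/Dpp4 cells held 41.2%, 34.2% and 58.5% of its FAP UMIs. Over all FAP-like cells 658, 646 and 857 UMIs gave 14.6, 21.4 and 19.4 CPM, an old/young ratio of 1.46 (1.31 to 1.64) and an rMETRNL/PBS ratio of 0.906 (0.817 to 1.005). In old PBS 1 cell held 110 UMIs, 17.0% of that library's total, and without it the old/young ratio was 1.22 (1.08 to 1.37) and the rMETRNL/PBS ratio 1.09 (0.978 to 1.22). The Sfrp5/Itgb4 cells of old PBS held 152, and without that sub-cluster the ratios were 1.15 (1.02 to 1.29) and 1.18 (1.05 to 1.32), so the rMETRNL/PBS ratio moved to the other side of 1. Within Pi16/Dpp4 cells the old/young ratio was 0.909 (0.758 to 1.09), so the higher level of the class in old PBS was not seen there.

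Cyp26b1, the enzyme that clears retinoic acid (chr6:84571414-84593908, minus strand), was a gene of FAP-like and endothelial-like cells. In FAP-like cells 1890, 1821 and 2523 UMIs gave 42.0, 60.4 and 57.1 CPM, with an old/young ratio of 1.44 (1.35 to 1.53) and an rMETRNL/PBS ratio of 0.946 (0.890 to 1.01). Young PBS was the lowest library. By sub-cluster the old/young ratio was 2.15 (1.92 to 2.41) in the Cxcl10/Lcn2-led cells, at 56.7, 122 and 118 CPM, and 3.38 (2.18 to 5.48) in the Dio2/Adamts4-led cells, at 10.3, 34.8 and 39.4 CPM. It was above 1 in all 8 sub-clusters, down to 1.18 (0.851 to 1.63) in cycling cells, and in 4 of them (Inka1/Swt1, Pi16/Dpp4, heat shock and cycling) the interval included 1. In Pi16/Dpp4 cells, where Aldh1a3 was high, the level was 3.87, 5.97 and 5.46 CPM.

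In endothelial-like cells Cyp26b1 had the ratio farthest from 1 of any member with at least 50 UMIs in a class of at least 100 cells per library, as the classes are reported here. The 654, 928 and 967 cells held 48, 281 and 329 UMIs, or 4.70, 42.1 and 29.96 CPM, so both old libraries lay far above young PBS. The old/young ratio was 8.95 (6.57 to 12.4), the rMETRNL/PBS ratio 0.712 (0.605 to 0.838) and the ratio of old rMETRNL over young PBS 6.37 (4.69 to 8.81). By the old/young ratio it was number 22 of 11735 genes in these cells, of which 9.74% were higher by at least 1.5-fold in old PBS. Most of it came from the capillary-type cluster led by Cldn5, Gpihbp1 and Timp4, at 5.26, 49.5 and 35.1 CPM and an old/young ratio of 9.40 (6.79 to 13.3). The venous-type cluster led by Selp, Sele and Ackr1 had 5, 20 and 17 UMIs and an old/young ratio of 5.80 (2.11 to 19.8).

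Depth moved with this result, since the median UMI count of the capillary-type cells was 10586.5, 3315.5 and 5276. With these cells thinned to 2000 UMIs, 2.40% (1.20% to 4.25%), 12.8% (10.2% to 15.7%) and 8.27% (6.22% to 10.7%) had a Cyp26b1 UMI, which kept the order of the libraries. Over 12 alternatives the old/young ratio of the class lay between 5.61 and 9.52. Free RNA from FAPs was measured with 8 FAP genes. The level of Cyp26b1 in endothelial-like cells was 11.2%, 69.7% and 52.5% of that in FAP-like cells, while the median of the 8 genes was 0.422%, 0.890% and 0.608% and the highest of them 2.27%. Dhrs3 in the same cells had an old/young ratio of 1.41 (1.22 to 1.63).

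Rarb, the retinoic acid receptor whose promoter element is printed above (chr14:16430839-16819156, minus strand), was highest in tenocyte-like cells among the 7 classes of at least 100 cells per library. These cells held 62, 47 and 100 UMIs, or 13.5, 22.9 and 24.5 CPM, with an old/young ratio of 1.70 (1.14 to 2.52) and an rMETRNL/PBS ratio of 1.07 (0.749 to 1.55). Thinned to 2000 UMIs their old/young ratio was 0.497 (0.0504 to 2.61), on the other side of 1 with an interval that includes it. The smaller pericyte/smooth muscle-like class (86, 106 and 87 cells) held 11, 10 and 5 UMIs, or 14.2, 16.7 and 8.84 CPM, with counting intervals that overlapped those of tenocyte-like cells in each library. In FAP-like cells 96, 88 and 155 UMIs gave 2.13, 2.92 and 3.51 CPM. The old/young ratio of 1.37 (1.01 to 1.85) and the rMETRNL/PBS ratio of 1.20 (0.920 to 1.58) were near the limit of counting, and old rMETRNL over young PBS was 1.64 (1.27 to 2.14). Pi16/Dpp4 cells had 5.65, 3.32 and 7.85 CPM. Rarb overlaps Top2b and Gm48162 on the opposite strand, whose reads would be mixed with its own only if counting ignored strand.

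Members were also read together in single cells. Cells thinned to 5000 UMIs were divided by Crabp1, with 131 positive and 4404 negative FAP-like cells over the 3 libraries and 165 shallower cells left out. An Aldh1a2 UMI was found in 24.4% (17.3% to 32.7%) of Crabp1-positive and 40.3% (38.8% to 41.7%) of negative cells, and a Cyp26b1 UMI in 4.58% (1.70% to 9.70%) and 14.9% (13.8% to 15.9%). For Aldh1a2 the share was lower among positive cells of each library, at 25% against 39.2%, 29.4% against 41.1%, and 22.7% against 40.7%. Aldh1a3 went the other way, at 11.5% (6.55% to 18.2%) against 5.20% (4.56% to 5.90%), and this came from old rMETRNL, where it was 18.2% against 5.57%, since young PBS had 4.17% against 4.77%. Aldh1a1 (12.2% and 12.3%) and Dhrs3 (15.3% and 15.7%) had like shares. Cells of 1 library are not replicates, and these shares are descriptions.

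The wider pathway was read from a list of 50 retinoid genes ordered by role, of which 34 had at least 50 UMIs in FAP-like cells. All 9 members passed this minimum. By a ratio of at least 1.5-fold, 2 members were higher (Aldh1a1 and Stra6) and 1 lower (Crabp1) in old PBS than in young PBS, where 7.65% of the 14253 genes with as many UMIs were higher and 6.83% lower. For old rMETRNL over old PBS, 1 member was higher (Crabp1, by the choice of the set) and 1 lower (Stra6), against 5.13% and 5.46% of all genes. For old rMETRNL over young PBS 2 were higher (Crabp1 and Rarb) and 0 lower, against 4.09% and 4.35%. The members' median log2 ratio was 0.45 for old PBS over young PBS, -0.08 for old rMETRNL over old PBS and 0.40 for old rMETRNL over young PBS. Over all genes it was -0.04, 0.01 and -0.01. Over the 25 listed genes with enough UMIs that were not members it was -0.14, -0.12 and -0.05.

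Among those 25 genes 4 were higher and 3 lower in old PBS than in young PBS. Rdh10, the main retinol dehydrogenase of embryos, was at 60.9, 121 and 80.5 CPM, an old/young ratio of 1.99 (1.90 to 2.09) and an rMETRNL/PBS ratio of 0.664 (0.633 to 0.695). The alcohol dehydrogenases Adh1 (1.6, 1.46 to 1.75) and Adh7 (1.69, 1.36 to 2.10) were also higher in old PBS, as was the retinoic acid-induced transglutaminase Tgm2, at 13.2, 27.7 and 19.9 CPM and a ratio of 2.10 (1.89 to 2.34). Rbp4, the retinol carrier of plasma, was lower at 0.617 (0.547 to 0.695). The other 2 lower genes, the dehydrogenases Rdh12 and Dhrs9, had 0.895 and 0.464 CPM in old PBS and intervals that included 1.

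For old rMETRNL over old PBS 1 of these 25 genes was higher and 3 were lower. Dhrs9, a retinol dehydrogenase, was higher at 3.51 (1.96 to 6.74), from 0.464 to 1.63 CPM. Its old PBS level rested on 14 UMIs, and it was far higher in macrophage/monocyte-like cells, at 18.9 CPM over the pooled libraries. Rdh10, Rdh12 (0.632, 0.352 to 1.13) and the retinoic acid responder Rarres1 (0.664, 0.472 to 0.934) were lower. Fabp5, which also carries retinoic acid, was at 81.8, 58.6 and 79.0 CPM, with an old/young ratio of 0.717 (0.677 to 0.759) and an rMETRNL/PBS ratio of 1.35 (1.27 to 1.43). It was far higher in macrophage/monocyte-like cells, and its level in FAP-like cells was 2.95%, 1.61% and 2.14% of that, where the 13 macrophage markers had medians of 0.661%, 0.892% and 0.947% and reached 1.29%, 1.36% and 1.70%. The part of macrophage RNA in the Fabp5 and Dhrs9 ratios was not tested. The receptors Rara, Rarg, Rxra, Rxrb and Rxrg lay within 1.5-fold in every contrast. Several of these counts turned on genes near the limit, as given under the dependence on the processing.

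**Figure D5:**
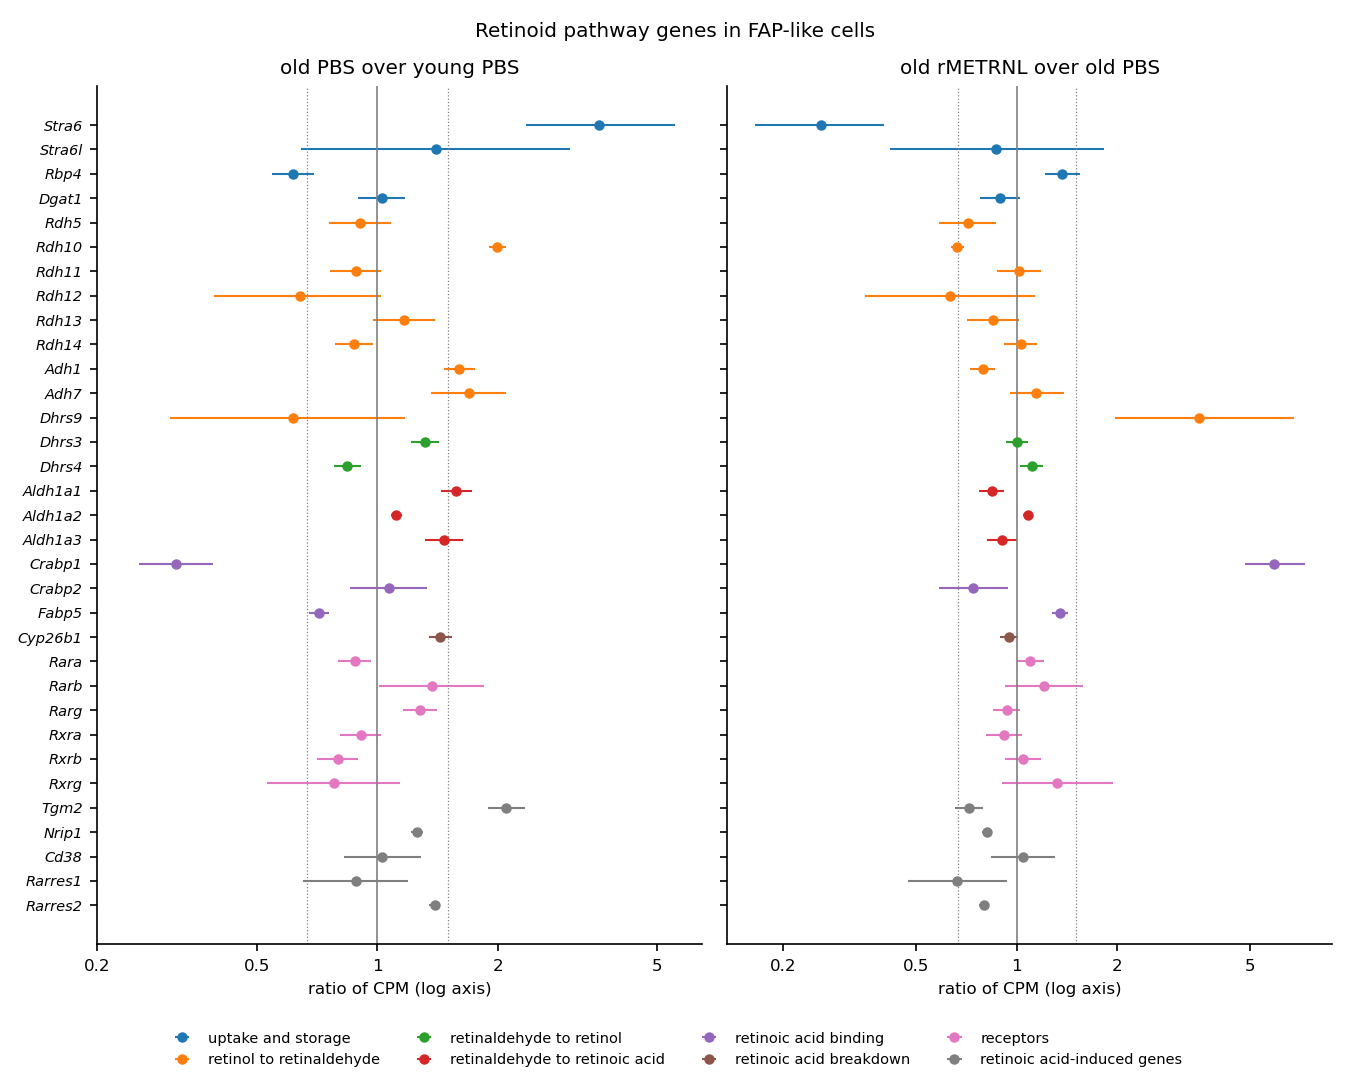
Ratios of CPM in FAP-like cells (x axis, log scale) for 33 of the 34 listed retinoid genes with at least 50 UMIs (y axis, coloured by role), with exact 95% counting intervals and dotted lines at 1.5-fold. Stra6 (3.57 and 0.259) and Crabp1 (0.315 and 5.90) lie farthest from 1 in either panel, on opposite sides, Dhrs9 is at 3.51 for old rMETRNL over old PBS, and most other genes lie between the dotted lines.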

How the data were processed

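Single-cell RNA sequencing of 3 libraries (1 per group) was analysed from raw UMI counts per gene and barcode, which the authors deposited as made by Cell Ranger (10x Genomics), with no normalization. The file headers give version 5.0.0 and the submitters' processing notes list 5.0.0 and 3.1.0 with build mm10, and the study's methods name another version. Every per-sample column was used (0 unused). Groups were taken from the labels.

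The cell filter asked for 500 genes or more and a mitochondrial share below 10%. Scrublet (in scanpy 1.11.5) scored each library for doublets. The threshold it set by itself called 0 barcodes, so the top scores were called at 0.8% per 1000 barcodes. On log values per 10000 UMIs, 2000 variable genes (retinoid list and members left out), 30 principal components and 20 neighbours were used for Leiden clustering at resolution 0.8. Clusters were named from 14 marker lists by the mean fold of the 8 best markers, with at least 3 markers and 33% of a list detected in 10% of cells. A cluster or FAP sub-cluster was removed where markers of another class outnumbered its own among the 10 leading genes, provided 50% of the other list was raised, or where its UMI count was low. The 50% condition was chosen after the cluster tables had been seen, and it kept 1 macrophage/monocyte-like cluster with the T cell marker Il7r among its leading genes and the FAP sub-cluster led by Il11 and Inhba. Removal took 4.60%, 6.77% and 9.39% of the cells of FAP clusters.

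UMIs were summed per class and library and given as CPM of the class total with exact 95% Poisson intervals. A ratio has the exact conditional interval for 2 Poisson counts, shares have Clopper-Pearson intervals, and an upper limit for a share of 0 is that of 3 counts. No test was possible with 1 library a group. Genes with at least 50 UMIs were counted past 1.5-fold after 0.5 was added to each count. PCR duplicates were already collapsed by UMI, and intervals cover counting error alone.

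The genes, lists and the rule for named genes (the 9 members, the listed pathway genes past 1.5-fold or described by role, and the genes most like a member by Pearson's r) were chosen with earlier results of these data known. Fabp5 and the receptors are named as members of the list, and some genes it holds are not reported here. Genes beside Crabp1 in the order of ratios were named after their values were seen. The code was tested on simulated data. Coordinates come from the GRCm38 annotation by gene ID, and promoters from RefSeq (GRCm38.p6). Software was pandas 2.3.3, scipy 1.17.1, numpy 2.4.6, scikit-learn 1.9.0, igraph 0.11.9, anndata 0.12.19, matplotlib 3.10.9 and leidenalg 0.10.2 under Python 3.11.15.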

Additional observations from a re-analysis of the deposited data

Results flagged for a closer look

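Aldh1a2 and Crabp1 had ratios on opposite sides of 1 in different cell classes, each with a counting interval that left out 1. The difference between the classes was not tested, since each class has 1 library a group.

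For old PBS over young PBS, Aldh1a2 was at 1.12 (1.08 to 1.15) in FAP-like cells and 0.336 (0.167 to 0.620) in tenocyte-like cells, where 80, 12 and 26 UMIs were counted in young PBS, old PBS and old rMETRNL. For old rMETRNL over young PBS it was 1.20 (1.17 to 1.24) in FAP-like, 1.48 (1.20 to 1.83) in macrophage/monocyte-like and 0.366 (0.226 to 0.576) in tenocyte-like cells. For old rMETRNL over old PBS it was 1.08 (1.05 to 1.11) in FAP-like, 1.55 (1.26 to 1.92) in macrophage/monocyte-like and 0.553 (0.352 to 0.864) in dendritic-like cells. In tenocyte-like cells of young PBS 1 cell held 25 of the 80 Aldh1a2 UMIs, and without it the ratio was 0.485 (0.236 to 0.916) for old PBS and 0.528 (0.318 to 0.857) for old rMETRNL over young PBS. In dendritic-like cells of old PBS 1 cell held 18 of 47, and without it the ratio was 0.893 (0.538 to 1.497). In macrophage/monocyte-like cells Aldh1a2 was at 1.48, 1.41 and 2.19 CPM, which is 0.765%, 0.654% and 0.940% of its level in FAP-like cells. The 8 FAP genes that trace free RNA had medians of 0.369%, 0.422% and 0.432%, below Aldh1a2 in each library. Their ranges were wide, at 0.221% to 16.5%, 0.226% to 6.16% and 0.287% to 12.4%, so holding the Aldh1a2 values says little. Thinned to 2000 UMIs the Aldh1a2 ratio in macrophage/monocyte-like cells was 0.875 (0.488 to 1.57) for old rMETRNL over old PBS. For old rMETRNL over young PBS it was 0.958 (0.531 to 1.73), so no difference in these cells can be read from it.

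Crabp1 for old rMETRNL over young PBS was 1.86 (1.67 to 2.07) in FAP-like and 0.436 (0.339 to 0.558) in tenocyte-like cells. In young PBS 1 tenocyte-like cell held 40.9% of the tenocyte UMIs of Crabp1, and without it the latter ratio was 0.729 (0.554 to 0.957). With doublet calls kept it was 0.948 (0.797 to 1.13).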

How the results depend on the processing

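Crabp1 in FAP-like cells kept its direction in all 3 contrasts under 13 planned and 8 added alternatives, the latter chosen after seeing the data. Below, age names only the contrast of old PBS over young PBS, and treatment that of old rMETRNL over old PBS. The treatment ratio of 5.90 became 2.28 with doublet calls kept, 2.64 with called doublets put back, 2.62 under the Pdgfra gate with doublet calls kept, 4.42 thinned, 7.33 without the Il11/Inhba-led, 4.40 without the cycling and 3.75 without both sub-clusters, and 3.50 without cells of at least 10 Crabp1 UMIs. The age ratio of 0.315 became 0.578 with doublet calls kept and with them put back, 0.557 under that gate and 0.423 thinned. The ratio of old rMETRNL over young PBS became 1.32, 1.53 and 1.46 under the 3 doublet settings, and 2.15, 1.44, 1.25 and 1.14 without the Il11/Inhba-led, the cycling and both sub-clusters and without cells of at least 10 Crabp1 UMIs. Of 483 alternative values for the other 8 members in FAP-like cells, 409 stayed within counting error, 66 moved and 8 changed sides of 1 where the interval had left out 1. Those 8 were Crabp2 for treatment (1.01 under the gate, 1.001 with doublet calls kept as well, 1.02 without the Sfrp5/Itgb4 sub-cluster), Stra6 for age (0.631 under the gate, 0.952 without that sub-cluster) and Stra6 for treatment (2.07, 1.91 and 1.07 in the 3 settings). Where the interval had held 1, another 31 values changed sides, 8 of them for Aldh1a3 treatment (1.02 to 1.31). In other classes 8 of 753 changed sides from an interval that had left out 1, and 51 from one that had held it. Thinning gave Aldh1a2 in macrophage/monocyte-like cells 0.875 for treatment and 0.958 for old rMETRNL over young PBS, and in tenocyte-like cells Crabp2 1.02 and Cyp26b1 0.907 for old rMETRNL over young PBS and Rarb 0.497 for age. With retinoid genes among the variable genes Dhrs3 in dendritic-like cells was at 0.965 for age and 1.03 for treatment, and by mean per-cell CPM it was at 1.06 for treatment in endothelial-like cells. Of listed pathway genes, the 6 higher in old PBS than in young PBS became 15 with no filter on UMIs. The 4 lower became 2 with removed sub-clusters counted, thinned, or at 200 UMIs, and 7 under the gate with doublet calls kept. For treatment the 2 higher became 1 at 200 UMIs and 6 with no filter. The 4 lower became 1 with doublet calls kept or put back, under either gate or without the Sfrp5/Itgb4 sub-cluster, 2 with stricter cells, mean per-cell CPM, thinning, 200 UMIs or no shared barcodes, and 12 with no filter. Leaving out single cells with many UMIs was also chosen after seeing the data. The causes were not tested beyond what each setting leaves out. No paired analysis was possible because each group has 1 library. One library a group, with several mice pooled, sets the limit on every ratio. Low counts also limit Stra6, Rarb and Crabp1 in old PBS. Crabp1 ratios moved with the doublet calls as well, and Stra6 ratios with the Sfrp5/Itgb4 cells.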
